A study of Gallus gallus with 12 samples.

Results

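CDH5, CAV, GATA2 and DLL1 are grouped here as genes of the vascular endothelium, the cell layer that lines blood vessels. Arrays of whole lung do not show which cells held their RNA. All 4 stood at their highest level at embryonic day (E) 18 in the chick lung. They are 4 of the 21390 transcripts measured on arrays of whole lung from white leghorn embryos, untreated, at E14, E15, E16 and E18, with 3 samples at each stage. Each sample was 1 array of total RNA. The labels do not say whether a sample was 1 embryo or a pool, so the spread between samples may be in part technical. Over these days the bird lung builds its air and blood capillaries and the thin barrier between them.

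The deposited rows carry Ensembl transcript identifiers and no gene names. The 4 names come from a list of vascular genes printed in the study. The rows were chosen by their measured values, since a row took a name where it alone held the fold change between E18 and E14 and the p across the stages printed beside that name. The names are only as sure as that match. CDH5 is the row ENSGALT00000008459, CAV is ENSGALT00000015303, GATA2 is ENSGALT00000009505 and DLL1 is ENSGALT00000037704. The symbol CAV names no particular caveolin, and the chicken gene table used here holds 3 of them, CAV1, CAV2 and CAV3. None of the 4 identifiers is paired with a symbol in that table, so no sequence is shown and the markers of lung cell types were not analysed here. Because the values that chose the rows span all 4 stages, every level and difference between stages below is a description and carries no p.

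Endothelial cells hold together through adherens junctions, and CDH5, vascular endothelial cadherin, is the adhesion molecule of these junctions. Caveolins form the coat of caveolae, small pits of the plasma membrane that are abundant in the capillary endothelium of the mammalian lung. GATA2 is a zinc-finger transcription factor of endothelial and blood-forming cells. DLL1 is a ligand of the Notch receptors, and in the mouse it acts in arteries as well as in many tissues outside the vessels. In RNA of a whole organ, more cells of a type and more RNA per cell cannot be told apart.

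The authors deposited log2 signals normalized by Robust Multi-array Analysis (RMA). On this scale a difference of 1 is a doubling of signal. The 4 transcripts stood between 6.69 and 9.94 log2 units above the random-sequence control of the same array, and at least 1.49 below the brightest transcript of any array. Signals of different transcripts come from different probes, so the size of a difference between them is not read here. The 12 arrays differed in the spread of all their values, with an SD between 2.21 and 2.62. It was lowest on E18 replicate 3 at 2.21, on E18 replicate 2 at 2.38 and on E15 replicate 3 at 2.44, while E18 replicate 1 had an SD of 2.58. The median change of all transcripts between E18 and E14 was -0.17.

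CDH5 rose at each step, by similar amounts on the deposited values. Its log2 signal was 13.52, 13.31 and 13.56 on the arrays of E14, 13.77, 13.78 and 13.81 at E15, 14.17, 14.07 and 13.98 at E16, and 14.46, 14.23 and 14.38 at E18. The 12 arrays stood in strict stage order, with no overlap between any neighbouring stages, although the gap between the lowest array of E18 and the highest of E16 was only 0.05. CDH5 was the only 1 of the 4 with this order, which 0.131% of all transcripts had, 28 in number. The mean was 14.35 ± 0.12 (SD, n = 3) at E18 and 13.47 ± 0.13 (SD, n = 3) at E14, a log2 difference of 0.89 (standard error 0.12), or 1.85-fold. The gain was 0.32 up to E15, then 0.29 up to E16 and 0.28 up to E18, each with a standard error of 0.12. The last step spans 2 days, so the gain per day was 0.14 there. With cyclic loess normalization the last gain was 0.39.

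CAV had the largest rise and the widest spread of the 4. Its log2 signal was 11.77, 12.08 and 12.72 at E14, 12.22, 12.58 and 11.61 at E15, 13.33, 13.26 and 12.95 at E16, and 14.41, 14.34 and 14.20 at E18. The arrays of E14 and E15 overlapped over most of their range, and every array of E16 stood above all of these, and every array of E18 above all of E16. The mean was 14.31 ± 0.11 (SD, n = 3) at E18 and 12.19 ± 0.48 (SD, n = 3) at E14, a log2 difference of 2.13 (standard error 0.28), or 4.37-fold. The mean changed by -0.05 in the first day, by 1.04 in the next and by 1.14 after E16, each with a standard error of 0.28. The last step spans 2 days, so the gain per day was 0.57 there. The first step has no settled direction, being 0.22 without E14 replicate 3 and -0.27 without E15 replicate 2. The SD of CAV narrowed over the series, from 0.48 at E14 and 0.49 at E15 to 0.20 at E16 and 0.11 at E18. The standard errors rest on 1 spread shared by all stages and do not reflect this narrowing. For the median transcript the SD was 0.14 at E14, 0.22 at E15, 0.17 at E16 and 0.53 at E18, so that CAV was more variable than 92.3% of transcripts at E14 and more variable than 5.83% at E18.

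GATA2 gained little up to E16 and was clearly higher at E18. Its log2 signal was 12.35, 12.65 and 12.63 at E14, 12.63, 12.67 and 12.81 at E15, 12.72, 12.77 and 12.74 at E16, and 13.36, 13.17 and 13.31 at E18. Neighbouring stages overlapped from E14 to E16, and the arrays of E18 stood at least 0.36 above all 9 earlier arrays. The mean was 13.28 ± 0.10 (SD, n = 3) at E18 and 12.54 ± 0.17 (SD, n = 3) at E14, a log2 difference of 0.73 (standard error 0.12), or 1.66-fold. Of this, 0.53 came in the 2 days between E16 and E18, or 0.27 per day. Before that, GATA2 gained 0.16 in the first day and 0.04 in the day to E16, again with a standard error of 0.12 for each step. The first of these was 0.065 without E14 replicate 1 and 0.040 with stage medians, and the second lay between 0.0054 and 0.094 when single arrays were left out. E14 replicate 1, the lowest array, was 0.19 under its stage mean.

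The mean of DLL1 was higher at E15 than at E14, no higher at E16 than at E15, and highest at E18. From E14 to E16 it gained 0.14 (standard error 0.12), so a course in separate steps is not settled. Its log2 signal was 12.11, 12.11 and 12.08 at E14, 12.31, 12.38 and 12.27 at E15, 12.28, 12.38 and 12.06 at E16, and 12.73, 12.93 and 12.77 at E18. Every array of E15 was above every array of E14, the arrays of E16 overlapped those of both earlier stages, and the arrays of E18 stood at least 0.35 above all 9 earlier arrays. The mean was 12.81 ± 0.11 (SD, n = 3) at E18 and 12.10 ± 0.01 (SD, n = 3) at E14, a log2 difference of 0.71 (standard error 0.12), or 1.63-fold. DLL1 gained 0.22 in the first day, changed by -0.08 in the next and gained 0.57 after E16, each with a standard error of 0.12. The last step spans 2 days, so the gain per day was 0.28 there. The lower mean at E16 rested on replicate 3, and without that array the step from E15 was 0.0060.

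**Figure D1:**
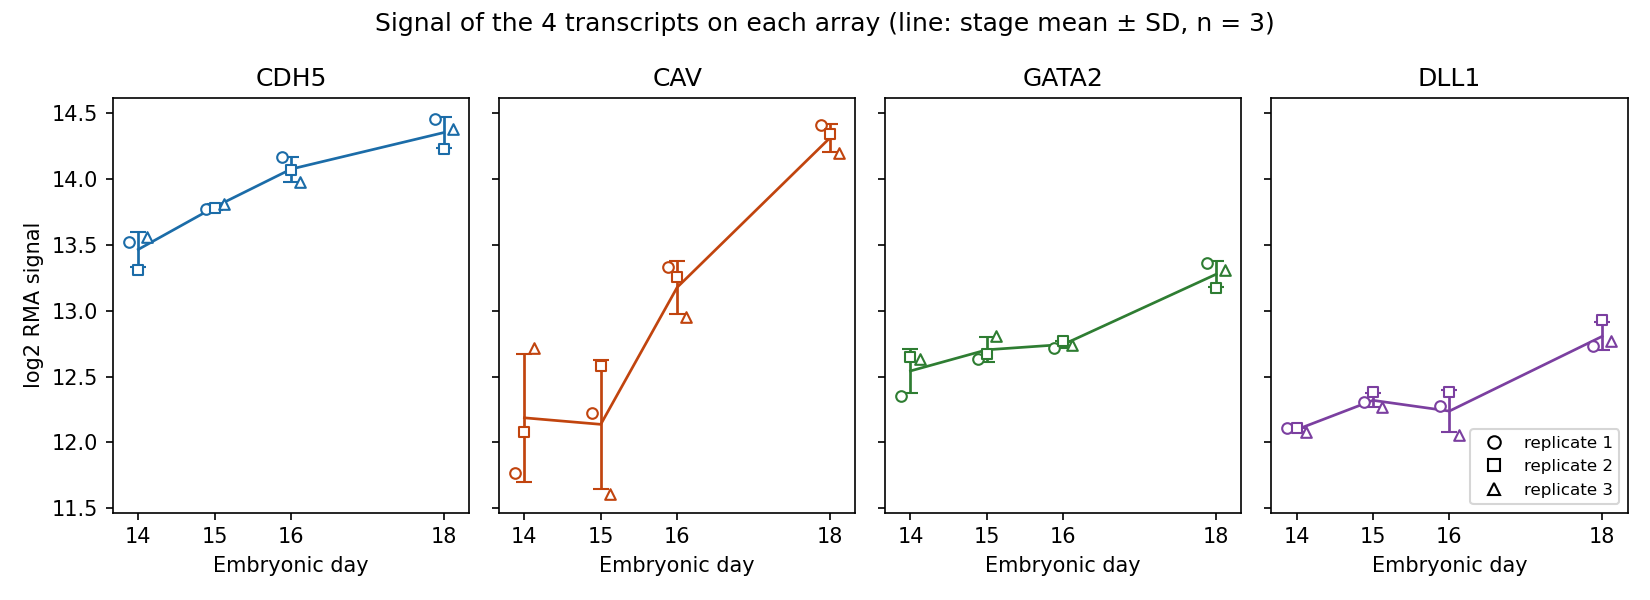
Log2 RMA signal of CDH5, CAV, GATA2 and DLL1 against embryonic day, with 1 symbol per replicate array and a line through the stage means with their SD (n = 3). All 4 are highest at E18; CDH5 climbs at each stage, CAV climbs after E15 and is widely spread at E14 and E15, and GATA2 and DLL1 gain most after E16.

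Every array of E18 was above every array of E14 in all 4 genes, which also held for 15.7% of all transcripts, and nothing is read from this count because the rows were chosen for this change. From E14 to E15, CDH5 and DLL1 moved up without overlap, that is 2 of the 4 genes, where 3.70% of all transcripts did. From E15 to E16 it was again 2 of the 4, now CDH5 and CAV, where 7.82% of all transcripts did. From E14 to E16 it was 3 of the 4, all but DLL1, with 11.6% of all transcripts. From E16 to E18 all 4 moved up without overlap, where 7.12% of all transcripts did, and in all 4 every array of E18 was above all 9 earlier arrays, as in 3.60% of all transcripts. These steps enter the p across the stages that named the rows, so the counts are not independent of that choice.

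The stage means thus differed between the genes in when the rise came. Set as a share of the whole change from E14 to E18, CDH5 had reached 68.7% at E16, CAV 46.6%, GATA2 27.4% and DLL1 19.9%. When single arrays were left out, the share at E16 lay between 63.2% and 73.9% for CDH5 and between 40.8% and 52.5% for CAV. For GATA2 it was between 16.5% and 32.3%, and for DLL1 between 10.2% and 32.3%. Over all other settings run, the lowest share of CDH5 was 61.1%, with cyclic loess, and the lowest of GATA2 was 16.0%, with stage medians. The ranges of CDH5 and CAV thus lay apart from each other and from those of GATA2 and DLL1, which overlapped. Such ranges show how far a single array or a setting moved a share. They are not a sampling error, which was not computed for the shares. No test of this difference in timing was made. At E15 the share was 36.3% for CDH5, 31.4% for DLL1, 21.9% for GATA2 and -2.33% for CAV. Without single arrays it lay between 30.3% and 39.6% for CDH5, 27.4% and 34.7% for DLL1, 10.2% and 27.2% for GATA2, and -13.5% and 10.01% for CAV, so that the sign of CAV turned.

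**Figure D2:**
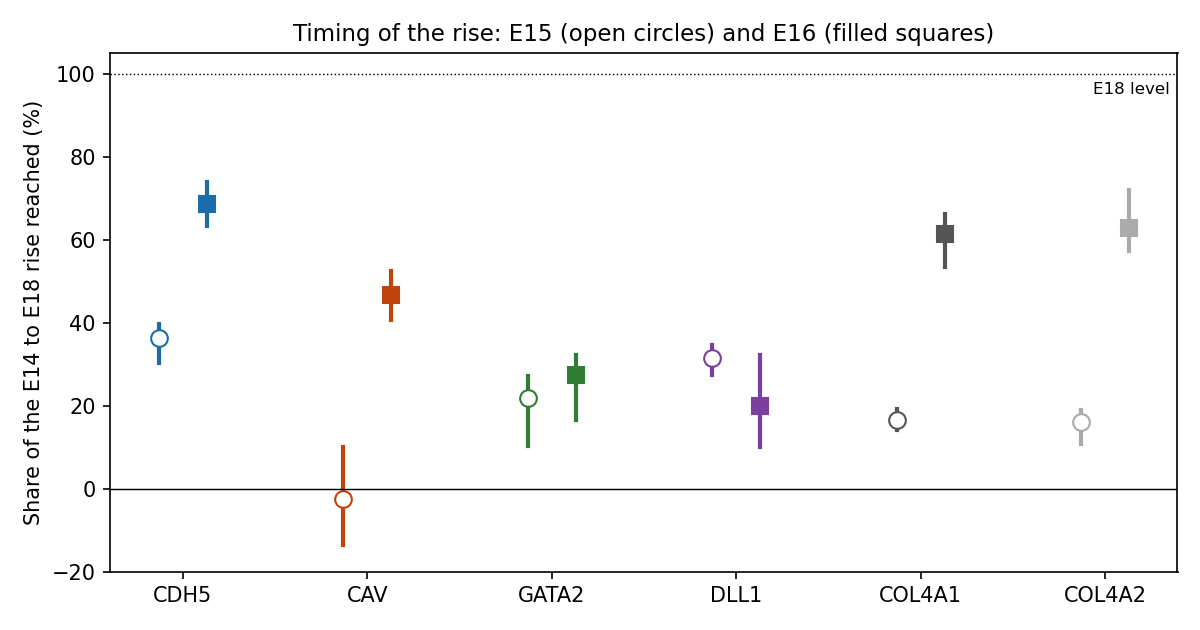
Share of the change from E14 to E18 reached at E15 (open circles) and at E16 (filled squares), in percent, for the 4 endothelial genes and for COL4A1 and COL4A2. Bars give the lowest and highest share with 1 of the 12 arrays left out; at E16 CDH5 stands at 68.7% and DLL1 at 19.9%.

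A straight line over embryonic day held 89.7% of the variance of the 12 values of CDH5, 85.1% for GATA2, 83.8% for CAV and 78.7% for DLL1. The slope was 0.22 log2 units per day for CDH5, 0.58 for CAV, 0.18 for GATA2 and 0.17 for DLL1. At E16 the means of CDH5 and CAV were 0.10 and 0.08 above their lines, and those of GATA2 and DLL1 were below theirs, by -0.12 and -0.17. CAV departed most at E15, where its mean was -0.38 from the line.

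COL4A1 and COL4A2, the chains of type IV collagen in the basement membrane under endothelium and epithelium, were named from the same printed list, as ENSGALT00000027197 and ENSGALT00000027208. They had reached 61.3% and 63.0% of their rise at E16, closer to CDH5 than to the 3 other genes. At E15, however, they had reached 16.7% and 16.0%, less than CDH5. Within the arrays, the log2 signal of CDH5 minus that of COL4A1 was -0.50 ± 0.14 at E18 and -0.28 ± 0.09 at E14 (SD, n = 3 each). The same difference for DLL1 was -2.05 ± 0.12 at E18 and -1.65 ± 0.05 at E14 (SD, n = 3 each). For GATA2 it was -1.58 ± 0.13 at E18 and -1.20 ± 0.19 at E14 (SD, n = 3 each). CDH5, DLL1 and GATA2 thus stood lower against COL4A1 at E18, while CAV minus COL4A1 was 1.01 higher at E18 than at E14. These changes follow from the differences between E18 and E14 by which the rows were chosen.

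Among the 4 genes, GATA2 and DLL1 kept the most constant relation in their stage means. The log2 signal of GATA2 minus that of DLL1 on the same array was 0.45 ± 0.17 at E14, 0.38 ± 0.13 at E15, 0.51 ± 0.15 at E16 and 0.47 ± 0.20 at E18 (SD, n = 3 each), and it changed by 0.03 between E18 and E14. CDH5 minus GATA2 changed by 0.15 over the same days, but was 0.41 higher at E16 than at E14. CAV minus GATA2 was 1.04 ± 0.14 at E18 and -0.36 ± 0.39 at E14 (SD, n = 3 each), a change of 1.39. Within stages, GATA2 minus DLL1 was not the tightest, with a pooled SD of 0.17. It was 0.14 for CDH5 minus GATA2 and 0.15 for CDH5 minus DLL1. These are differences between signals of different probes, so their change over the stages can be read and their size cannot. Their changes between E18 and E14 follow from the differences by which the rows were chosen.

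Over the 12 arrays the 6 pairs of the 4 genes had a Pearson r between 0.78, for CDH5 and DLL1, and 0.87, for GATA2 and DLL1, with a mean of 0.84. The median r of these genes with all transcripts lay between -0.28 and -0.18. Since all 4 were chosen for a rise, a high r among them follows in part from the choice, and the 12 points share their arrays. Other transcripts were as closely correlated with the 4. Of the 21390 transcripts measured, 299 others had a mean r with the 4 genes at least as high as the lowest mean r of 1 of the 4 with the other 3. Such an r does not require the same timing of the rise. The 2 most alike were ENSGALT00000005253, with a mean r of 0.92, and ENSGALT00000006710, with a mean r of 0.91. The first stood at 13.59 ± 0.05 at E18 and 9.23 ± 0.26 at E14 (SD, n = 3 each), and the second at 14.02 ± 0.05 at E18 and 13.09 ± 0.06 at E14 (SD, n = 3 each). The 2 most opposite in course were ENSGALT00000008352, with a mean r of -0.91, and ENSGALT00000034639, also with -0.91. Their means were 13.44 and 11.62 at E18, and 13.92 and 13.97 at E14. The files and the gene table name none of these 4.

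On the deposited values, the 4 genes showed little common movement from array to array within a stage. The deviations of an array from its stage mean gave a mean Pearson r of 0.06 over the 6 pairs, from -0.29 for GATA2 and DLL1 to 0.32 for CAV and DLL1, over 12 arrays. The rule did not use this agreement. Against all transcripts, the median of the same r was 0.03 for CDH5, 0.15 for CAV, -0.03 for GATA2 and 0.04 for DLL1, so the mean over the pairs lay within the range of these medians. GATA2 and DLL1, the pair closest over the stages, had the lowest r within them. With cyclic loess normalization the mean over the 6 pairs was 0.34, and the r with all transcripts was not computed under it. The 12 deviations of a gene leave 8 degrees of freedom.

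Pooled over the stages, the replicates of 3 of the 4 lay close together. The pooled SD was 0.10 for CDH5 and for DLL1, 0.11 for GATA2 and 0.36 for CAV, where the median over all transcripts was 0.36. By stage, the SD of the median transcript was 0.53 at E18, against 0.14 at E14, 0.22 at E15 and 0.17 at E16. At the stage where each ranked highest, CDH5, GATA2 and DLL1 were near the middle of all transcripts. CDH5 at E14 was more variable than 47.8% of them, GATA2 at E14 than 57.9% and DLL1 at E16 than 47.6%. The SD within stages entered the p that named the rows, so a small SD is in part a result of the choice. COL4A1 and COL4A2, named in the same way, had pooled SDs of 0.09 and 0.10. The median is taken over transcripts of all signal levels, and whether the SD depends on the level was not tested. The largest departure of a single array was that of CAV on E14 replicate 3, at 0.53 above its stage mean. It was -0.15 for CDH5, on E14 replicate 2, -0.19 for GATA2, on E14 replicate 1, and -0.18 for DLL1, on E16 replicate 3. That last array was the lowest of E16 for CDH5, CAV and DLL1.

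The spread of the arrays moved with the stages, since 2 of the 3 arrays of E18 had the lowest SD of all. Over the 12 arrays the r of each gene with the SD of the array was between -0.67, for GATA2, and -0.48, for CAV. On the deviations within stages it was 0.08 for CDH5, 0.38 for CAV, -0.08 for GATA2 and -0.01 for DLL1. At E18, where the SD of the arrays ran from 2.21 to 2.58, the 3 arrays differed by at most 0.24 in any of the 4 genes, and E18 replicate 1, whose SD was like that of the earlier arrays, held the highest value of CDH5, CAV and GATA2 and the lowest of DLL1. With the SD of the array as a covariate the log2 difference between E18 and E14 was 0.90 for CDH5, 2.41 for CAV, 0.72 for GATA2 and 0.71 for DLL1.

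**Figure D3:**
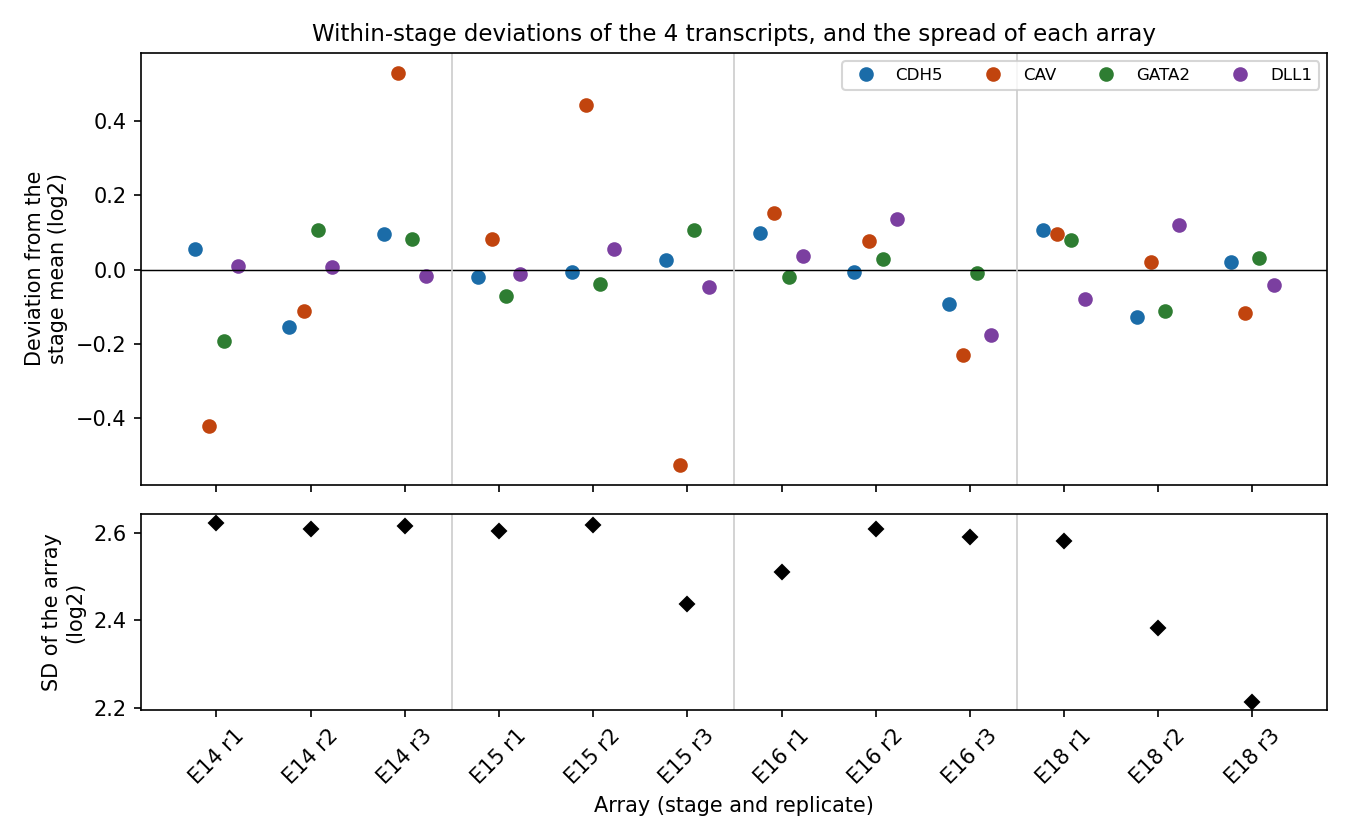
Deviation of each array from the mean of its stage in log2 units for the 4 genes (top), and the SD of all transcripts on the same array (bottom), over the 12 arrays in stage order. CAV reaches 0.53 above its stage mean on E14 replicate 3, and the array SD falls to 2.21 on E18 replicate 3. A shift shared by all arrays of a stage cannot show in these deviations.

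Relative to the median change of all transcripts, the differences between E18 and E14 were 1.06 for CDH5, 2.30 for CAV, 0.90 for GATA2 and 0.88 for DLL1. All 4 were positive in every setting run, and each was within 1.5 times of its value from the deposited signals. The sign could not turn with arrays left out, with stage medians or with the replicate block, because the arrays of E18 and E14 did not overlap in any of the 4. The rows were chosen by this change, so these values describe how it depends on the processing and are no further evidence for it. Cyclic loess, under which the median change of all transcripts was 0.0041, gave the largest values for GATA2 and DLL1, 0.98 and 1.01, and with them CDH5, GATA2 and DLL1 no longer differed by more than 0.03. Under median centring and cyclic loess, the differences of CDH5, GATA2 and DLL1 moved by more than their pooled SD within stages. So did that of DLL1 with quantile normalization and that of CDH5 without the 3 arrays of lowest SD.

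**Figure D4:**
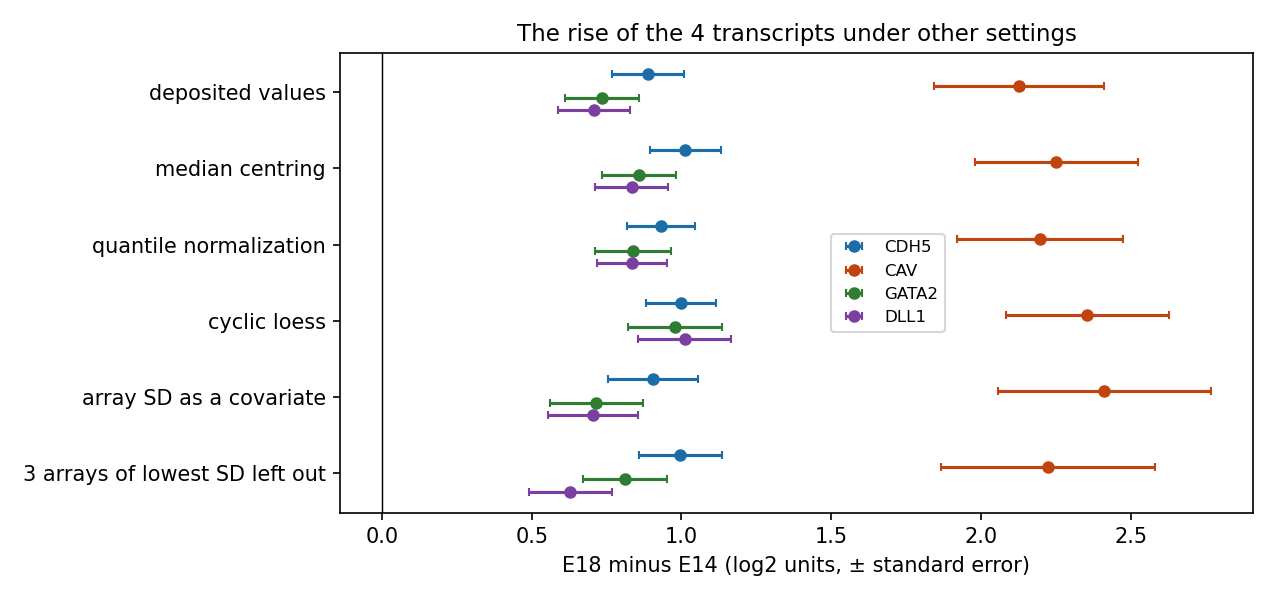
Log2 difference between E18 and E14 with its standard error for the 4 genes, from the deposited values and under 5 other settings of scaling or arrays. The value stays between 0.63 and 1.01 for CDH5, GATA2 and DLL1 and between 2.13 and 2.41 for CAV.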

How the data were processed

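Total RNA of whole chick lung was hybridized to custom NimbleGen arrays, 12 in all. The authors normalized the scans by RMA, named DNASTAR ArrayStar for the analysis, and deposited 1 log2 value per transcript and array. Software version, Ensembl release and probes per transcript are not given in the sources used here. RMA sets the distributions of probe signals of the arrays equal, which can lessen a change shared by most transcripts. The number of arrays limits the precision.

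Groups followed the sample titles. A mean per stage was fitted to every transcript over all 12 arrays with limma 3.58.1 in R 4.3.3, leaving out the control of random sequence and filtering nothing. The fit has 8 residual degrees of freedom and shares 1 spread per transcript over the stages. For the standard errors, limma drew this spread toward that of all transcripts, with 1.76 prior degrees of freedom. They therefore do not follow from the SD of a transcript alone. Nor do they reflect an SD that differed between stages, as it did for CAV and DLL1. The fit was tested on simulated data with independent noise of 1 SD per transcript on all arrays. That simulation did not include the differences in spread between stages and arrays seen here, so it does not check the standard errors under them. Plots were drawn with Python 3.11.15 and matplotlib 3.10.9. The genes named are the 4 members, COL4A1 and COL4A2, and the 2 transcripts most and the 2 least like the members by mean r over the 12 arrays. The members, lists and tests were chosen with earlier results of these data known. Markers of endothelium, caveolae, Notch, blood, epithelium and mesenchyme were to be matched by symbol, and 0 transcripts could be matched.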

Additional observations from a re-analysis of the deposited data

How the results depend on the processing

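The differences between stages were recomputed with 3 other scalings, with the SD of the array as a covariate, with stage medians, with the replicate block, without each array and, chosen after seeing the data, without the 3 arrays of lowest SD together. The shares at E16 were run under all of these but the block. The counts without overlap were run with the 3 scalings and with arrays left out, and the mean r within stages with the 3 scalings and without each array. The lines, the r over 12 arrays and the differences within arrays were not recomputed. Between E18 and E14, median centring gave 1.01 for CDH5, 0.86 for GATA2 and 0.83 for DLL1, cyclic loess gave 0.998, 0.98 and 1.01 in that order, and quantile normalization gave 0.83 for DLL1. Without the 3 arrays of lowest SD it was 0.995 for CDH5. With 1 array left out it was between 0.81 and 0.95 for CDH5, 1.92 and 2.39 for CAV, 0.64 and 0.79 for GATA2, and 0.65 and 0.75 for DLL1. From E16 to E18, cyclic loess gave 0.39 for CDH5, 1.34 for CAV, 0.75 for GATA2 and 0.84 for DLL1. The deposited values gave 0.28, 1.14, 0.53 and 0.57 in that order. Without the 3 arrays of lowest SD this step was 0.38 for CDH5. The scalings differ in the median change they leave to all transcripts.

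The change of CAV from E14 to E15, -0.05, had no settled direction. It was 0.030 with the array SD as a covariate, 0.14 with stage medians, 0.22 without E14 replicate 3, and 0.21 without E15 replicate 3 or without the 3 arrays, and between -0.27 and 0.22 over the arrays left out singly. That of DLL1 from E15 to E16 was between -0.15 and 0.0060 with 1 array left out, the upper end without E16 replicate 3. The mean r within stages was 0.34 with cyclic loess and between -0.11 and 0.15 with 1 array left out, falling to -0.03 without E14 replicate 3 and to -0.11 without E16 replicate 3. The cause of these shifts was not tested. In all runs of this count, 4 genes had no overlap from E14 to E18 and E16 to E18. From E14 to E15 and E15 to E16 it was 2 or 3. Leaving arrays out could not lower it.

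With the replicate block the differences between E18 and E14 were the same, 0.89 for CDH5 with a standard error of 0.12, since the design is balanced. Same-numbered arrays of different stages had a mean correlation of their deviations of -0.05, over 18 pairs that ran from -0.62 to 0.68. The mean for arrays of different number was 0.02. With 3 arrays per stage and so wide a range, these means cannot show whether the numbers pair the samples.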
